A study of Mus musculus with 9 samples.

Results

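The LY6 family was followed through 5 of its genes, Ly6a, Ly6c1, Ly6c2, Ly6e and Ly6d, which were 5 of the 55487 genes with a value in all 9 RNA-seq libraries. They were taken by gene name, but the names were chosen by their measured TPM levels in these 9 libraries, which had been seen beforehand, so their own levels and fold changes are given as a description and carry no test. The libraries came from splenic CD4+ T cells of wild-type (Trail-r+/+) female C57BL/6 mice aged 6 to 7 weeks, isolated by negative selection, in 3 groups of 3. Medium cells received no stimulus, and their time in culture is not given in the sources used here. Stimulated cells were cultured for 24 h with Abs against CD3 (3 µg/ml), part of the T cell receptor complex, and against the costimulatory receptor CD28 (2 µg/ml). TRAIL-treated activated T cells received the same Abs for the same 24 h together with TRAIL, the TNF superfamily ligand of TRAIL-R, at 10 µg/ml. All 3 groups carried functional TRAIL-R, and a group given TRAIL without the Abs was not analysed here.

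LY6 proteins are small surface proteins built on a cysteine-rich, finger-like fold, and most are held in the outer leaflet of the plasma membrane by a glycosylphosphatidylinositol (GPI) anchor. On lymphocytes and myeloid cells they have long served as antigens that mark a lineage or a state of activation, and several of their genes are known to respond to interferons. The genes lie side by side on mouse chromosome 15 and many arose by duplication, so near-identical copies can differ in expression.

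Levels are given as TPM, a per-length abundance in which every library has the same total, so a level can be compared between genes. The values keep no read totals, so depth and counting error are unknown, and each error below is the SD over 3 libraries. A fold change is a difference of mean log2(TPM + 1), with its SE from a limma fit across all genes, and a gene was called when its Benjamini-Hochberg adjusted p was under 0.05 and its absolute log2 fold change was at least 1. Per library, 13691 to 14909 genes reached 1 TPM, and the correlation across genes between libraries of 1 group was 0.983 to 0.993. The summed level of 9 T cell markers, Cd3e and Cd4 among them, ranged from 4556 to 4625 TPM over the medium libraries, from 3429 to 4018 TPM over the stimulated libraries and from 4561 to 4809 TPM over the TRAIL-treated libraries. Markers of other splenic cells were also present, and their sums stand beside the genes they moved with.

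All 5 genes are protein-coding in GENCODE, each with 3 coding exons, and lie on chromosome 15 (GRCm38). Ly6a (ENSMUSG00000075602) is at chr15:74994877-74998031 on the minus strand and Ly6e (ENSMUSG00000022587) at chr15:74955051-74959905 on the plus strand. Ly6c1 (ENSMUSG00000079018) is at chr15:75044018-75048830, Ly6c2 (ENSMUSG00000022584) at chr15:75108158-75111970 and Ly6d (ENSMUSG00000034634) at chr15:74762056-74763620, all on the minus strand. Their coding sequences run from 381 bases in Ly6d to 408 bases in Ly6e. In global alignments of these sequences, Ly6c1 and Ly6c2 were identical at 384 of 393 positions (97.7%), and Ly6a was 81.8% identical to Ly6c1 and 81.6% to Ly6c2. Ly6e and Ly6d stood further off, at 47.4 to 52.3% identity to one another and to the other members.

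Because the 2 Ly6c genes differed in direction in what follows, the stretch of their coding sequences in which the differences are densest is shown, bases 6 to 65 of the coding part of the first numbered GENCODE transcript of each gene, read 5′ to 3′ with capitals at the 6 differing bases.
Ly6c1: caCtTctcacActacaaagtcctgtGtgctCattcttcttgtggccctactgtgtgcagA
Ly6c2: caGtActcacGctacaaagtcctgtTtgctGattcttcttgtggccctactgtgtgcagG
Over the whole transcripts, 802 of 844 aligned positions were identical. Of the 150-base stretches, the length of 1 sequencing read, 39 of 695 in Ly6c1 (5.61%) occurred letter for letter in Ly6c2, and the longest shared run was 188 bases. For stretches of 50 bases, as a trimmed read may leave, 252 of 795 (31.7%) were shared. The reads were sequenced in pairs. A pair with both mates in shared stretches cannot be assigned to 1 of the 2 genes by sequence alone, so the separate levels of these genes are uncertain.

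The promoters of the pair were less alike than their coding sequences. RefSeq windows of the 250 bases before the start site (GRCm38.p6) were found for 2 of the 5 members, and are printed 5′ to 3′ along the minus strand, with capitals at GGAAA, the core bound by NFAT factors downstream of the T cell receptor. The Ly6c1 window is chr15:75048838-75049087 and the Ly6c2 window is chr15:75111972-75112221.
Ly6c1: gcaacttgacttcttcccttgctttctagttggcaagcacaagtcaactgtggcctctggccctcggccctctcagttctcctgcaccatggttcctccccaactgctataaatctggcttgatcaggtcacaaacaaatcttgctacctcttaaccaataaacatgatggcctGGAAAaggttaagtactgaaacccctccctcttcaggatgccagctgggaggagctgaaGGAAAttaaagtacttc
Ly6c2: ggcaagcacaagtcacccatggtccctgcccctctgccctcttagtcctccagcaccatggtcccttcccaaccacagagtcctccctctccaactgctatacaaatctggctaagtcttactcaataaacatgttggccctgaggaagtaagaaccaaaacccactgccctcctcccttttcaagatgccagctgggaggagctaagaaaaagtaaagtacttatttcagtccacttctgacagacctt
In a global alignment 164 of 284 positions (57.8%) were identical. The windows begin and end at different points of the sequence they share, so unmatched ends lower this share. Only the first listed window of each gene was used, and 2 other windows of Ly6c1 and Ly6c2 were left aside. GGAAA was searched on both strands and was found at bases -76 and -17 from the start site in Ly6c1, with no match in Ly6c2. It is a frequent word, held by 55.6% of 27025 mouse promoter windows of the same length. The interferon-response words TTCNNNGAA (GAS, in 7.18% of promoters) and GAAANNGAA (an ISRE core, in 7.16%) and the AP-1 site TGANTCA (in 6.87%) had no match in either window. A match to letters is a description and not a binding site. For Ly6a, Ly6e and Ly6d no window is shown.

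Ly6a encodes Sca-1, the stem cell antigen that is also carried by T cells. Its level was 107, 98.5 and 107 TPM in medium, 1581, 1168 and 1161 TPM after stimulation and 45.1, 51.0 and 42.7 TPM in TRAIL-treated activated T cells. The 3 groups did not overlap, and the stimulated libraries stood far above the others while the TRAIL-treated libraries lay lowest. The means were 104 ± 4.87, 1303 ± 241 and 46.3 ± 4.30 TPM (SD, n = 3). Stimulated cells thus held 12.5 times the mean level of medium cells, and TRAIL-treated activated T cells held 28.2 times less than stimulated cells and 2.25 times less than medium cells. On the log2 scale the differences were 3.62 for stimulation, -4.77 for TRAIL on top of stimulation and -1.16 for TRAIL-treated activated T cells against medium (SE 0.13 each). The last of these was near the fold threshold and became -0.99 when the libraries were scaled by median of ratios. By rank among all listed genes, Ly6a stood between 96 and 108 in the stimulated libraries, between 1546 and 1777 in medium and between 3362 and 3934 with TRAIL.

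**Figure D1:**
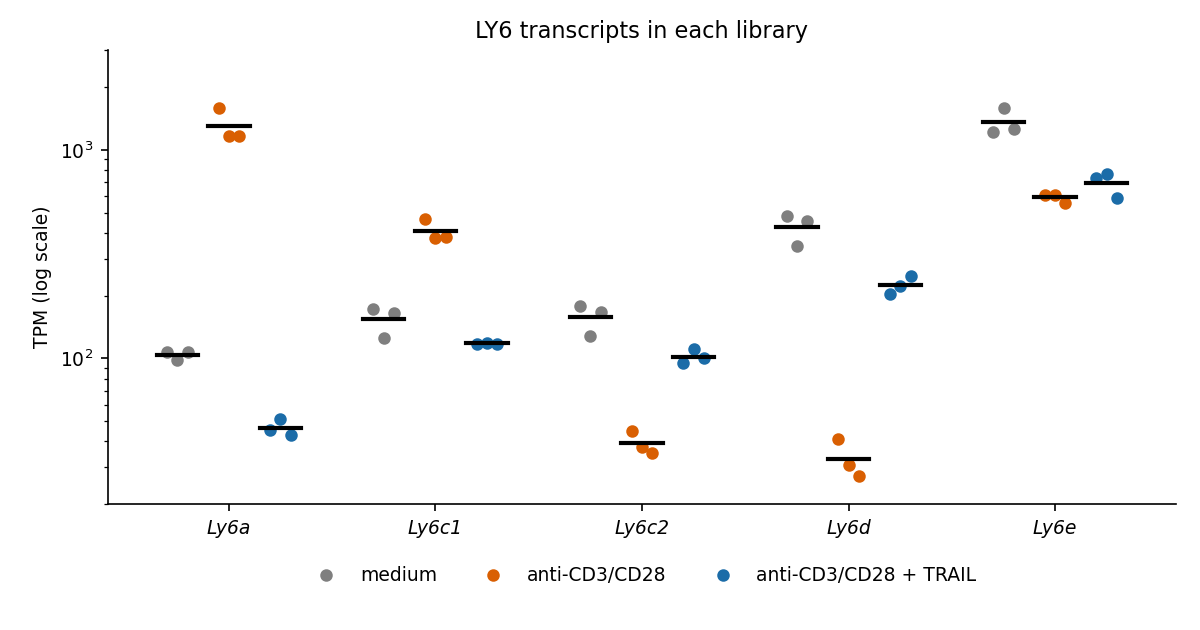
TPM (log scale) of the 5 LY6 genes in each library, with 3 points per group placed in replicate order and a bar at the group mean. Ly6a and Ly6c1 were highest in stimulated cells, whereas Ly6c2, Ly6d and Ly6e were highest in medium.

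Ly6c1 and Ly6c2 encode the 2 forms of the Ly6C antigen, used as a marker of monocytes and of some T cells. Ly6c1 was at 172, 125 and 166 TPM in medium, 466, 376 and 384 TPM after stimulation and 117, 119 and 118 TPM with TRAIL. Like Ly6a, it was highest in stimulated cells, with no overlap between groups. The means were 154 ± 25.2, 409 ± 49.8 and 118 ± 0.852 TPM, and the log2 differences were 1.41 for stimulation and -1.78 for TRAIL against stimulation (SE 0.13 each). TRAIL-treated activated T cells lay only just below medium, by -0.37 (95% interval -0.67 to -0.08).

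Ly6c2 was at 178, 128 and 166 TPM in medium, 44.7, 37.5 and 35.2 TPM after stimulation and 94.6, 110.4 and 99.8 TPM with TRAIL. Here the stimulated libraries were the lowest and the TRAIL-treated libraries lay between them and medium, again without overlap. The means were 157 ± 26.4, 39.1 ± 4.97 and 102 ± 8.08 TPM, and the log2 differences were -1.97, 1.36 and, against medium, -0.61 (SE 0.14 each). The 2 genes were therefore at equal levels in medium, where Ly6c1 made up 49.5 ± 0.402% of the pair, and far apart after stimulation, where it made up 91.3 ± 0.332%. With TRAIL the share was 53.7 ± 1.78%. In single libraries the ratio of Ly6c1 to Ly6c2 ranged from 0.964 to 0.996 in medium, from 10.0 to 10.9 after stimulation and from 1.07 to 1.24 with TRAIL.

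The levels of the pair were also added before the fit, to lessen the dependence on how shared reads were divided. As TPM is per length and the transcripts differ in length, some dependence remains. The sum was 311 ± 51.6 TPM in medium, 448 ± 54.6 TPM after stimulation and 219 ± 8.92 TPM with TRAIL. Its log2 differences were 0.53 for stimulation, within the fold threshold, and -1.02 for TRAIL against stimulation (SE 0.13 each). The direction of the sum was that of Ly6c1 and the reverse of that of Ly6c2. Since Ly6c1 made up 91.3% of the pair after stimulation, the sum does not show the direction of Ly6c2.

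Ly6c2 had the directions of monocyte and macrophage genes, which most B cell, neutrophil and erythroid markers also had. In these bulk samples fewer cells of a type and less RNA per cell cannot be told apart. The summed level of 12 monocyte and macrophage markers ranged from 1677 to 1817 TPM in medium, from 55.0 to 63.2 TPM after stimulation and from 1359 to 1525 TPM with TRAIL, and none was at the lowest listed value in all libraries of a group. By limma with Benjamini-Hochberg adjustment, 12 of 12 were lower after stimulation, beside 31.9% of all genes called in either direction, and 12 of 12 higher with TRAIL than with stimulation alone, beside 30.9%. With TRAIL against medium none of the 12 was called, beside 4.62% of all genes. The 12 markers had median log2 fold changes of -5.40, 5.26 and -0.17 in these 3 comparisons. Among them, Ccr2, the chemokine receptor of inflammatory monocytes, went from 33.5 ± 5.37 through 7.42 ± 0.155 to 19.8 ± 2.80 TPM. Lyz2, the lysozyme gene of myeloid cells, differed far more than Ly6c2, with 545 ± 81.9, 7.48 ± 1.33 and 346 ± 16.9 TPM. The sum of 6 neutrophil markers, Ly6g among them, was 506 to 785, 27.5 to 41.9 and 348 to 437 TPM in the same order of groups. Their part in the Ly6c2 values was not tested.

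Ly6d encodes an antigen of B cells and their lymphoid progenitors, also known as ThB. Its level was 482, 346 and 458 TPM in medium, 41.0, 30.8 and 27.4 TPM after stimulation and 204, 223 and 248 TPM in TRAIL-treated activated T cells. All medium libraries were above all TRAIL-treated libraries, which were above all stimulated ones. The means were 429 ± 72.3, 33.0 ± 7.06 and 225 ± 21.8 TPM. The log2 differences were -3.66 for stimulation, 2.75 for TRAIL against stimulation and -0.92 for TRAIL-treated activated T cells against medium (SE 0.17 each), the last being -1.06 without medium library 2. Of the 3 members that were lower after stimulation, Ly6d had the largest difference.

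B cell markers were present in every group and moved with Ly6d. The sum of 10 such markers ranged from 2418 to 2590 TPM in medium, from 183 to 209 TPM after stimulation and from 1006 to 1153 TPM with TRAIL, and none of the 10 was at the lowest listed value throughout a group. Of them, 10 were called lower after stimulation, 8 higher with TRAIL than with stimulation alone and 8 lower with TRAIL than in medium (limma, adjusted over all genes), beside 31.9%, 30.9% and 4.62% of all genes called in either direction. Cd79a, part of the B cell receptor, was at 555 ± 45.8, 23.3 ± 2.15 and 268 ± 14.5 TPM. Ly6d divided by the sum of the markers was 0.172 ± 0.0340 in medium, 0.172 ± 0.0448 in stimulated and 0.208 ± 0.0352 in TRAIL-treated cells, and the libraries of the 3 groups overlapped, at 0.134 to 0.199, 0.146 to 0.224 and 0.177 to 0.246. Divided by Cd79a alone, Ly6d was at 0.782 ± 0.187, 1.43 ± 0.381 and 0.844 ± 0.128. The part of B cell RNA in the Ly6d values was not tested.

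**Figure D2:**
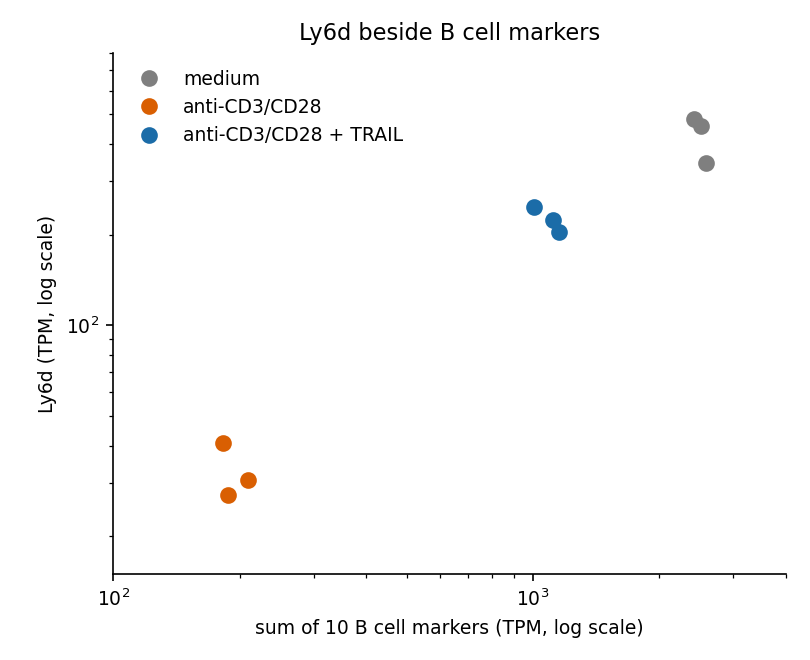
Ly6d (TPM, log scale) against the summed TPM of 10 B cell markers (log scale), with 1 point per library. The stimulated libraries lie lowest on both axes, with sums of 183 to 209 TPM, and the medium libraries highest, with sums of 2418 to 2590 TPM.

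Ly6e encodes thymic shared antigen-1 and was the most abundant member in medium. It was at 1217, 1582 and 1265 TPM there, 606, 608 and 558 TPM after stimulation and 729.9, 768 and 586 TPM with TRAIL. All medium libraries were above all others, whereas the stimulated and TRAIL-treated libraries overlapped. The means were 1355 ± 198, 591 ± 28.4 and 695 ± 96.0 TPM. Stimulated cells were at -1.19 relative to medium (SE 0.13), or -0.999 and no longer past the threshold after median-of-ratios scaling. TRAIL-treated cells were at 0.22 relative to stimulated cells (95% interval -0.07 to 0.52). Against medium, TRAIL-treated activated T cells were at -0.96 (95% interval -1.26 to -0.67). This value passed the fold threshold on leaving out any 1 of 4 libraries, at -1.03 without medium library 1, -1.01 without medium library 3, -1.003 without TRAIL-treated library 1 and -1.04 without TRAIL-treated library 2.

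Across the members, stimulation came with calls for 5 of 5, 2 higher and 3 lower, where 31.9% of the 15536 genes tested were called. For TRAIL against stimulation alone, 4 of 5 were called, 2 in each direction, beside 30.9% of all genes tested. For TRAIL-treated activated T cells against medium, 1 of 5 was called, Ly6a, beside 4.62% of all genes. The members were named with these values known, so nothing is read from the counts. Their median log2 fold changes were -1.19, 0.22 and -0.92 in these comparisons, and those of all genes tested were -0.15, 0.01 and -0.18. The first and the second comparison share the stimulated libraries, so each member's values in them are not independent.

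The place of the TRAIL-treated libraries on the log2 scale can be given on a line that runs from 0 at the mean of medium to 1 at that of stimulated cells. Ly6a stood at -0.320 ± 0.0357 and Ly6c1 at -0.264 ± 0.00735, on the far side of medium from stimulated cells. Ly6d stood at 0.250 ± 0.0378 and Ly6c2 at 0.311 ± 0.0570, between both states and nearer to medium. Ly6e stood at 0.811 ± 0.174, nearer to stimulated cells. These SDs cover the TRAIL-treated libraries only, not the spread of the medium or stimulated libraries.

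Added together, the 5 genes held 2199 ± 70.1 TPM in medium, 2375 ± 317 TPM after stimulation and 1185 ± 88.9 TPM with TRAIL. The first 2 sums overlapped, since the medium libraries ran from 2155 to 2280 TPM and the stimulated libraries from 2166 to 2739 TPM, whereas the TRAIL-treated libraries ran from 1094 to 1271 TPM. Between the groups the make-up of the sum differed. Ly6e made up 61.5 ± 6.95% of the sum in medium, 25.1 ± 2.69% after stimulation and 58.4 ± 4.23% with TRAIL. Ly6a made up 4.74 ± 0.366%, 54.6 ± 2.71% and 3.90 ± 0.114%. The share of Ly6d was 19.6 ± 3.84% in medium, 1.38 ± 0.116% in stimulated and 19.1 ± 3.06% in TRAIL-treated cells.

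**Figure D3:**
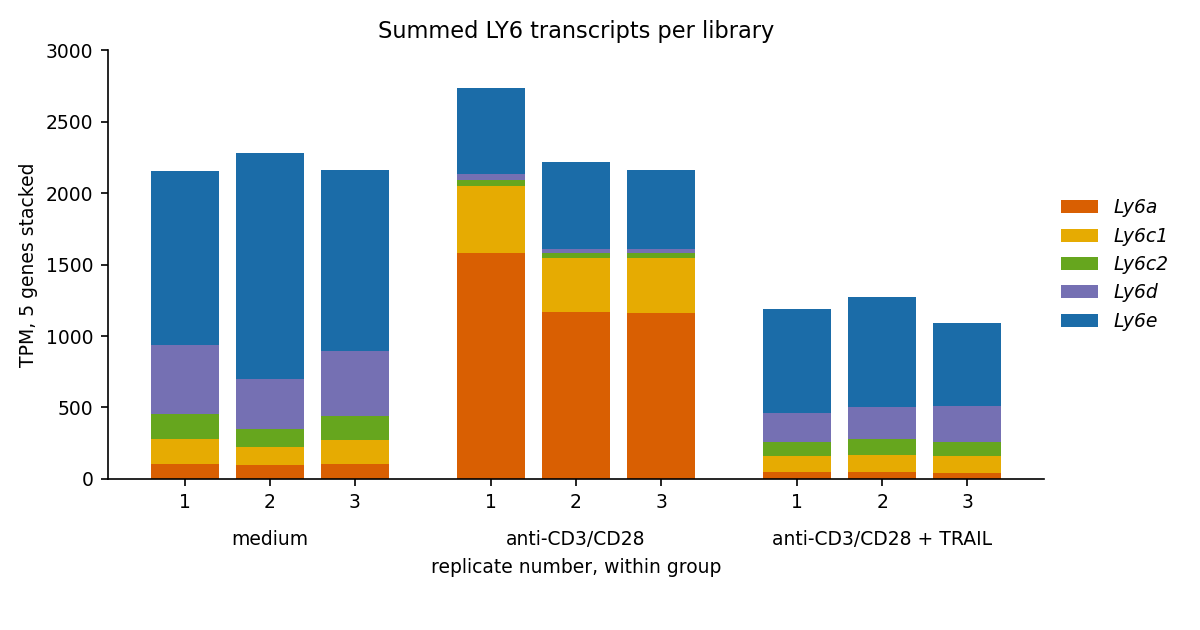
TPM of the 5 LY6 genes stacked for each library, with libraries ordered by replicate number within the 3 groups. The stimulated bars are mostly Ly6a (52.6 to 57.7% of the sum), while Ly6e is the largest part of every medium and TRAIL-treated bar.

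By level, the order in medium was Ly6e, Ly6d, Ly6c2, Ly6c1 and Ly6a, in which Ly6c2 and Ly6c1 did not differ beyond their spread. In stimulated cells it was Ly6a, Ly6e, Ly6c1, Ly6c2 and Ly6d, in which Ly6c2 and Ly6d overlapped. In TRAIL-treated activated T cells it was Ly6e, Ly6d, Ly6c1, Ly6c2 and Ly6a, with no overlap between neighbours. The ratio of Ly6e to Ly6a ranged from 11.4 to 16.1 in medium, from 0.383 to 0.521 after stimulation and from 13.7 to 16.2 with TRAIL.

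Relatives of the 5 genes in the same chromosomal cluster were mostly silent. Of 18 such genes with a value, 5 passed the filter of 1 TPM in 3 libraries, and in each group 10 or 11 were at 0.0001 TPM in all 3 libraries. Ly6i was the one relative outside the 5 genes whose coding sequence was aligned, with 86.3% identity to Ly6a. It was at 2.55 ± 0.192 TPM in medium, 12.1 ± 4.03 TPM after stimulation and 0.826 ± 0.305 TPM with TRAIL. Its log2 fold changes were 1.84 for stimulation (adjusted p = 2e-05, limma) and -2.81 for TRAIL against stimulation (adjusted p = 8.71e-07), the directions of Ly6a. Ly6a exceeded Ly6i 35.7- to 45.1-fold in medium, 94.5- to 124-fold after stimulation and 43.5- to 75.0-fold with TRAIL. How many Ly6a reads were assigned to Ly6i was not tested.

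Ly6a2, the neighbour of Ly6c2, was at 9.56, 7.70 and 9.43 TPM in medium, 0.191, 0.158 and 0.0001 TPM after stimulation, the last being the value given to most genes without detected transcripts, and 4.58, 5.21 and 3.76 TPM with TRAIL. It was called lower with stimulation (adjusted p = 2.96e-08, limma) and higher with TRAIL than with stimulation (adjusted p = 3.25e-07), the directions of Ly6c2. The RefSeq promoter window of Ly6a2 was identical to that of Ly6c2 at 241 of 255 aligned positions (94.5%). Lynx1, whose protein modulates nicotinic acetylcholine receptors, likewise changed by -3.26 (SE 0.14) with stimulation and 2.12 with TRAIL against stimulation. Ly6g, the neutrophil antigen, was at 2.32 ± 0.743, 0.544 ± 0.185 and 0.675 ± 0.212 TPM. It passed the filter through the medium libraries alone, where it was highest, so no call is read from it. Ly6k, a gene of germ cells, was at 3.86 ± 0.392, 5.70 ± 1.04 and 3.72 ± 0.585 TPM and was not called.

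Along the chromosome, in an interval of 885 kb from Psca to Gpihbp1 that was chosen after the values were seen, 12 of 50 listed genes passed the filter. Ly6i, Ly6a and Ly6c1 lie next to one another among those 12, with start sites at -14.6, 0 and 50.8 kb from that of Ly6a, and were higher after stimulation and lower with TRAIL than with stimulation alone. Them6 and Ly6k, at -277 and -198 kb, had the same signs with smaller values for stimulation, at 0.55 and 0.46, neither past the fold threshold, and at -1.17 (called) and -0.50 (not called) for TRAIL against stimulation. The nearest tested genes on either side of the 3 were Ly6e at -43.0 kb and Ly6c2 at 114 kb, both lower after stimulation. Ly6d and Lynx1, at -234 and -245 kb, were lower after stimulation and higher with TRAIL than with stimulation alone.

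**Figure D4:**
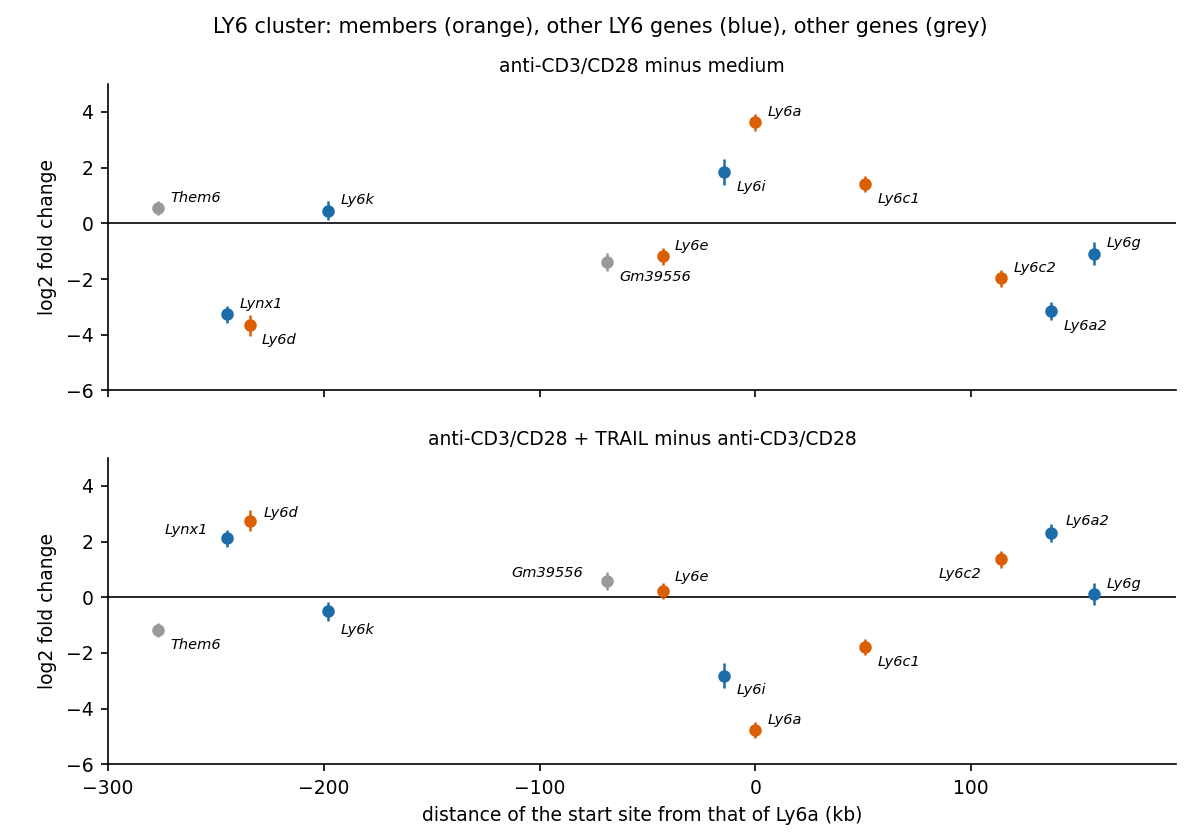
Log2 fold change (point, with 95% interval) of the 12 tested genes of the LY6 cluster against the distance of their start sites from that of Ly6a in kb, for stimulation against medium (top) and for TRAIL against stimulation alone (bottom). Ly6i, Ly6a and Ly6c1 lie above 0 in the top panel and below 0 in the bottom panel, as do Them6 and Ly6k with smaller values at the top, and their nearest neighbours Ly6e and Ly6c2 lie below 0 in the top panel.

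At other loci, 3 of 22 genes of the LY6/uPAR family passed the filter. Plaur, the urokinase receptor, was at 37.0 ± 2.51 TPM in medium, 17.7 ± 0.526 TPM after stimulation and 105 ± 9.03 TPM with TRAIL, and was the one tested LY6/uPAR gene called higher with TRAIL than in medium (log2 fold change 1.48, adjusted p = 5.52e-06, limma). Lypd6b was at 18.0 ± 0.751, 1.06 ± 0.220 and 18.7 ± 1.82 TPM, lower after stimulation and, with TRAIL, at 0.05 relative to medium (log2 fold change, adjusted p = 0.773, limma). Ly6g5b was at 1.96 ± 0.305, 0.809 ± 0.200 and 1.45 ± 0.341 TPM and was not called.

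Since several LY6 genes are known interferon targets, the genes of that pathway were set beside them. Ifng, the interferon of activated T cells, was at 9.19 ± 1.30 TPM in medium, 216 ± 31.1 TPM after stimulation and 41.3 ± 9.21 TPM with TRAIL, called higher with stimulation, lower with TRAIL than with stimulation, and higher with TRAIL than in medium. Of 22 interferon-induced genes tested, 8 were called higher and 3 lower after stimulation, with a median log2 fold change of 0.81 beside -0.15 for all genes tested, of which 31.9% were called. With TRAIL against stimulation 15 were called lower and 1, Mx1, higher, with a median of -1.18 beside 0.01 for all genes tested, of which 30.9% were called. Gbp2, a guanylate-binding protein, was near Ly6a in size of change, with 60.3 ± 3.55, 1213 ± 21.9 and 46.4 ± 2.18 TPM and log2 fold changes of 4.31 and -4.68 (SE 0.08). Iigp1, an immunity-related GTPase, changed by 2.73 and -3.20. In contrast, Mx1, Rsad2 and Ifit1, antiviral genes of the type I interferon response, were called lower after stimulation, at -1.72, -1.34 and -1.12. Such genes did not all go down, since Isg15 and Bst2 of the same list were called higher.

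Of 12 genes upstream of that response, 3 were called higher and 1 lower after stimulation, near the 31.9% of all genes, and 4 higher and 4 lower with TRAIL against stimulation, beside 30.9%. The inhibitor Socs1 was at 5.84 ± 0.930, 123 ± 21.7 and 12.2 ± 1.37 TPM. Jak1, the shared kinase of these receptors, was called lower after stimulation (-1.24) and higher with TRAIL than with stimulation (1.28), whereas Jak2 was called in the opposite directions (1.32 and -1.44). The receptor chains Ifngr1, Ifngr2 and Ifnar1 were called higher with TRAIL than with stimulation, by 1.15, 1.31 and 1.24. In TRAIL-treated activated T cells against medium, Ifng and Ifngr2 were called higher, by 2.04 and 1.31. In the same comparison the 22 interferon-induced genes had a median of -0.49 beside -0.18 for all genes tested, and 1 of them, Cxcl10, was called, higher by 2.35, beside 4.62% of all genes. A further 16 were lower at an adjusted p under 0.05 within the fold threshold, where 5063 of all 15536 genes passed that p in either direction.

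The genes whose profiles lay closest to each member were found by the distance between centred log2(TPM + 1) values over the 9 libraries, among 10451 tested genes of at least 10 TPM in some group. The 9 points fall into 3 groups, so a high correlation mostly restates the order and spacing of the group means. For Ly6a the closest was Slc6a9, a glycine transporter gene (distance 0.805, r = 0.993), followed by Eif4ebp1, Bnip3, Procr and Galk1. For Ly6c1 it was Mrps10, a mitochondrial ribosomal protein gene (distance 0.198, r = 0.997), followed by Suclg1, Eif2s1, Psma7 and Hat1. For Ly6c2 it was St8sia4, a sialyltransferase gene (distance 0.388, r = 0.988), followed by Rdh12, Serinc3, Ccr2 and Ly86. For Ly6d it was H2-Oa (distance 0.254, r = 0.999), followed by H2-Aa, both MHC class II genes, and Anxa1, Blvrb and Iglv3. For Ly6e it was Irf5, an interferon regulatory factor gene (distance 0.225, r = 0.990), followed by Cnp, Tbxa2r, Hdac10 and Ltb. No gene was among the nearest 5 of more than 1 member.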

How the data were processed

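RNA-seq was measured in splenic CD4+ T cells in 3 groups of 3 libraries, with groups and replicate numbers taken from the sample labels. The deposited file gives TPM for each gene and library, which the authors derived as reads per transcript length scaled to the same total in each library. Per the submitters' processing notes, the tools included Trimmomatic 0.36, HISAT2 2.1.0, SAMtools 1.2, StringTie 2.1.2 and DESeq2. Those notes name the human build GRCh38, whereas the positions of the members in the file were those of mouse GENCODE M21 on GRCm38, the build used here. TPM keeps no depth, and whether reads were counted by strand is not given in the sources used here.

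On log2(TPM + 1), limma 3.58.1 in R 4.3.3 was fitted to all 9 libraries at once (lmFit, then eBayes with its trend option) for the 15536 genes of at least 1 TPM in at least 3 libraries. The pseudocount of 1 understates the change of low genes. The labels do not say whether the libraries of a group came from separate animals, so p-values measure only the spread between these libraries. The fit was checked on simulated data. Coding and promoter sequences were aligned with Biopython 1.88, and Python 3.11.15 with pandas 2.3.3 and matplotlib 3.10.9 drew the figures.

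Named genes were the 5 members, the tested LY6/uPAR genes, up to 5 called genes of the largest change per list and comparison, defining markers of cell types and the 5 nearest profiles of each member. The text names some of these genes only, and the values of some marker genes are not reported here. The lists covered LY6/uPAR genes, GPI anchor synthesis, other GPI-anchored proteins, the interferon pathway and markers of splenic cell types. The members and lists were chosen with earlier results of these data known. Alternatives varied the pseudocount, filter, scaling, variance trend, libraries in the fit, replicate block and fold threshold, summed Ly6c1 with Ly6c2 and left out each library in turn.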

Additional observations from a re-analysis of the deposited data

How the results depend on the processing

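Of the members' 15 log2 fold changes, none changed direction under the 19 alternatives that kept Ly6c1 and Ly6c2 apart. Some of these cannot alter a member's fold change: the filters, the variance trend, the replicate block, and leaving out libraries or a group outside the comparison. With the pair summed, the sum differed by 0.53 for stimulation, below the fold threshold, and by -1.02 for TRAIL against stimulation. Ly6c1 made up 91.3% of the pair after stimulation, so the sum cannot check the direction of Ly6c2. Median-of-ratios scaling brought Ly6a against medium with TRAIL to -0.99 and Ly6e for stimulation to -0.999, both just inside the threshold, and quantile normalization brought Ly6e against medium with TRAIL to -1.20, past it. Leaving out 1 library at a time moved the last value between -1.04 and -0.84 and that of Ly6d between -1.06 and -0.82. These scalings raised the median of all genes by 0.17 and 0.19 for stimulation and by 0.15 and 0.14 for TRAIL-treated cells against medium. The share of higher calls went from 38.8% to 48.9% and 52.1%, and from 53.9% to 73.0% and 70.6%. The cause was not tested.

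Over all genes, 4959 were called for stimulation, 4800 for TRAIL against stimulation and 718 for TRAIL-treated cells against medium. A pseudocount of 5 gave 2946, 2883 and 332, no fold threshold gave 10678, 10420 and 5063, and a pseudocount of 0.1 gave 1167 in the last comparison. Same-numbered libraries did not consistently deviate together (9 correlations of -0.306 to 0.295, 3 above 0.1). With 3 libraries per group this cannot show whether the samples were paired, and the labels do not say. With the replicate number as a block, 4960, 4802 and 714 genes were called. Ly6a stayed at 3.62 for stimulation, which a balanced block cannot change.

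With 3 libraries per group and no read totals, the counting error of low genes such as Ly6i and Ly6g is unknown.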

Other observations

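The GPI anchor that holds LY6 proteins in the membrane is built and remodelled by enzymes of the endoplasmic reticulum and Golgi, whose genes were followed as a list. Of 32 tested, 1 was called higher and 3 lower after stimulation (limma, adjusted over all genes), where 31.9% of all genes tested were called, with a median log2 fold change of -0.09 beside -0.15 for all genes. The largest change was in Pgap1, which removes an acyl chain from the anchor, at 21.9 ± 2.39 TPM in medium, 1.11 ± 0.165 TPM after stimulation and 14.8 ± 0.942 TPM with TRAIL. Dpm1, a subunit of dolichol-phosphate mannose synthase, was called higher by 1.09 (SE 0.35), with 21.2 ± 5.72, 47.0 ± 16.3 and 34.0 ± 12.9 TPM. With TRAIL against stimulation, Pgap1 (2.90) and Pigz (1.02) were called higher and Pigg (-1.15) and Pigf (-1.09) lower, beside 30.9% of all genes called. Pigz passed the filter only through the TRAIL-treated libraries, where it was highest. The list had a median of -0.33 beside 0.01 for all genes.

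Of 15 genes tested for other GPI-anchored proteins of leukocytes, 5 were called higher and 6 lower after stimulation, and 5 higher and 5 lower with TRAIL against stimulation. Over all genes tested, 1926 were called higher and 3033 lower in the first comparison (31.9% in all), and 2580 higher and 2220 lower in the second (30.9%). Among the 15, Efna5 was counted as higher and then lower, but passed the filter only through the stimulated libraries and was at 0.0001 TPM in all others. Sema7a, a semaphorin, was at 7.78 ± 0.874, 140.5 ± 11.4 and 7.51 ± 1.23 TPM, and the prion protein gene Prnp was at 11.3 ± 0.609, 49.0 ± 4.6 and 10.9 ± 0.666 TPM. Cd55, a regulator of complement, was at 199 ± 14.4, 8.17 ± 1.09 and 143 ± 5.70 TPM, and Art2b, an ADP-ribosyltransferase, at 55.2 ± 2.92, 2.87 ± 0.520 and 26.9 ± 4.21 TPM. Art2b was the gene of the list called in TRAIL-treated cells against medium, at -1.02.

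Sums of markers of further cell types, in the order medium, stimulated and TRAIL-treated, were 460 to 579, 359 to 389 and 454 to 511 TPM for 6 plasma cell markers. They were 287 to 327, 198 to 209 and 154 to 180.0 TPM for 6 plasmacytoid dendritic cell markers, a list that shares the interferon-induced gene Bst2. Spib, Ccr9 and Siglech of that list were called lower after stimulation and higher with TRAIL against stimulation, and Bst2 was called in the opposite directions (limma, adjusted over all genes), so the sum does not follow these 3 markers. For 6 NK and CD8 T cell markers the sums were 267 to 316, 132 to 136 and 102 to 111 TPM, for 6 endothelial and stromal markers 208 to 219, 49.9 to 70.5 and 172 to 199 TPM, and for 7 erythroid markers 2093 to 2549, 25.6 to 40.8 and 614 to 663 TPM.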
